A study of Mus musculus with 10 samples.

Results

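The transcripts described here are those of 9 growth and neurotrophic factors in sorted hippocampal microglia: *Bdnf*, *Ntf3*, *Gdnf*, *Igf1*, *Pdgfa*, *Pdgfb*, *Vegfa*, *Vegfb* and *Hbegf*. They were chosen by symbol, and all 9 are among the 55453 genes of the count table. Of these 9 genes, 7 had at least 1 read, and 6 passed the filter on low counts that left 14481 genes to be tested. The microglia came from female 3xTg AD mice over 15 months old, in 5 libraries from mice injected with phosphate-buffered saline (PBS) and 5 from mice injected with glatiramer acetate (GA), a random amino acid copolymer used to treat multiple sclerosis. Both groups carry the same human transgenes, which include MAPT with P301L and APP with the Swedish mutation, driven by the Thy1.2 promoter that is active mainly in neurons. Injections were subcutaneous over 8 weeks, at a labelled weekly GA dose of 0.1 mg, and the mice were retired breeders. No non-transgenic microglia are part of this comparison, so it concerns GA in the diseased brain only. Cells were sorted as CD45int CD11b+, a gate that monocytes and macrophages of the brain's borders can partly enter.

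Microglia are often described as a source of trophic support for neurons. BDNF, encoded by *Bdnf*, and neurotrophin 3, encoded by *Ntf3*, act on Trk receptors to support survival and synaptic plasticity, whereas GDNF acts through RET and its co-receptors. IGF-1 acts on the receptors for IGF-1 and insulin and is produced by microglia in development and around injury or plaques. Platelet-derived growth factors A and B act on PDGF receptors of oligodendrocyte precursors and pericytes. Among the remaining factors, VEGF-A drives vessel growth and permeability and is a classical target of hypoxia-inducible factor, VEGF-B binds the receptor encoded by *Flt1*, and heparin-binding EGF-like growth factor (*Hbegf*) is shed from the cell surface to activate EGF receptors.

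Sequences just upstream of the start site are shown for 3 of the genes, because these stand for the highest level per length in the set (*Vegfb*), for its family member with the lowest level among the genes tested (*Vegfa*) and for a gene without a single read (*Gdnf*). They were taken from RefSeq on GRCm38.p6, each covering the 250 bases before an annotated start, on the strand of the gene and 5′ to 3′. Capitals mark matches on either strand to GAGGAA, the core bound by PU.1 (the factor that defines the macrophage lineage), to ACGTG, the core of the hypoxia response element, and to TATAAA, the TATA box, and none of the matches overlapped another.
Vegfb: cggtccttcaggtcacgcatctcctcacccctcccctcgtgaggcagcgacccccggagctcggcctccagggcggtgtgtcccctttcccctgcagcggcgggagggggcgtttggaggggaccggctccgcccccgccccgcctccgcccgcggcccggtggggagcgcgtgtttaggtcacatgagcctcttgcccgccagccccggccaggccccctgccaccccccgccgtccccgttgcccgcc
Vegfa: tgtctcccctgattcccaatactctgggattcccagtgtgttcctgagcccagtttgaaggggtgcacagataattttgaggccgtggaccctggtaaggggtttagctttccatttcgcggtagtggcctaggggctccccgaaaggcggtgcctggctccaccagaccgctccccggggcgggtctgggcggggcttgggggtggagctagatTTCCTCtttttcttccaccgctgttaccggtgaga
Gdnf: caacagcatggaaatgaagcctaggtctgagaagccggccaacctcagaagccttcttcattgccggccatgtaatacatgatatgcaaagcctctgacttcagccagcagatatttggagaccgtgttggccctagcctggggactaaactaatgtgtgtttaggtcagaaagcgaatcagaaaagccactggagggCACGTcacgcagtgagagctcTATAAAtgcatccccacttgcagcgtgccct
The *Vegfb* window, at chr19:6987652-6987901 on the minus strand, held 0 of the 3 motifs and 26 CG dinucleotides. The *Vegfa* window, at chr17:46032378-46032627 on the minus strand, held 1 PU.1 core and 11 CG dinucleotides. The *Gdnf* window, at chr15:7809798-7810047 on the plus strand, held 1 hypoxia core, 1 TATA box and 7 CG dinucleotides. Over all 32851 windows of this length, 23.3% held a PU.1 core, 16.6% a hypoxia core and 12.4% a TATA box, and the median number of CG dinucleotides was 6. A match is a description of the letters, and their absence from this window says nothing about the binding of a factor. *Gdnf* and *Vegfa* each have a further annotated start that is not shown, and its window held other motifs. That of *Gdnf* held 1 PU.1 core, 0 hypoxia cores and 0 TATA boxes. That of *Vegfa* held 0 PU.1 cores, 1 hypoxia core and 0 TATA boxes.

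Library totals ran from 32332185 to 38764643 reads, with 0.129% to 0.180% of reads on mitochondrial genes. The defining microglial markers were present in every library, with the 10 genes of that list summing to between 54278 and 64236 counts per 1e6 reads (CPM). Library titles began with the prefix 388 for PBS and with 394 or 400 for GA. The sources do not explain it and no prefix holds both treatments, so the prefix and GA cannot be told apart. Nothing but the labels says that the libraries are separate mice, and p-values measure the spread between these samples. The PBS libraries 388_4 and 388_5 stood apart from the rest: the chi-square per degree of freedom over genes was 32.7 to 55.9 in pairs that include either, and 13.9 to 30.7 in the 28 other pairs. Values without single libraries are therefore given for the growth factors and, chosen after the data were seen, for partner genes with the larger differences. The list of 12 monocyte and neutrophil markers summed to between 65.7 and 518 CPM in PBS (median 370). In GA the sum was between 41.8 and 211 CPM (median 76.9). The monocyte markers *Plac8* and *Ccr2* differed least, with log2 fold changes of -0.03 (SE 0.37) and -0.10 (SE 0.19). *Ly6c2*, with 175 reads in all, was at -1.94 (SE 0.60), and the neutrophil granule gene *Ngp* at -2.11 (SE 0.73). All 12 markers were lower in GA, and 0 had an adjusted p under 0.05 in edgeR. An unadjusted edgeR p under 0.05 was reached by 9, where 3.17% of all genes were lower at that threshold. With each library left out, 10 to 12 markers were lower, and 7 to 10 were lower at that threshold. The latter count was 4 with a robust quasi-likelihood fit, 1 with the GA libraries of prefix 394 alone and 10 with those of prefix 400 alone. Border-associated macrophage markers summed to 50.2 to 260.0 CPM in PBS and 50.4 to 199 CPM in GA. Since these are bulk samples, fewer cells of a type and less RNA per cell cannot be told apart, and the part of these cells in the values below was not tested.

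Across all 10 libraries the growth factors spanned several tiers of abundance. Levels of different genes were compared as CPM per kilobase (kb) of annotated exon. *Vegfb* was highest at 21.8 ± 1.25 CPM per kb (mean and SD over 10 libraries, as for the levels that follow). *Pdgfb* followed at 11.5 ± 1.39 and *Pdgfa* at 7.21 ± 0.881 CPM per kb. *Igf1* was next at 3.31 ± 0.792 CPM per kb. The library ranges of these 4 genes did not overlap with each other or with those of the genes beneath them, so the order was the same in each library. *Hbegf* (0.864 ± 0.220 CPM per kb) and *Vegfa* (0.487 ± 0.293 CPM per kb) formed a lower tier whose ranges overlapped, with *Hbegf* above *Vegfa* in 9 of 10 libraries. *Bdnf* averaged 0.00304 CPM per kb. *Gdnf* and *Ntf3* had no reads. Counting 3 reads over the 10 libraries as the limit that a total of 0 allows, *Vegfb* was at least 9430-fold and *Igf1* at least 1431-fold higher per kb than *Gdnf*. Against *Ntf3* the corresponding bounds were 4399-fold and 667-fold. The order of the 6 tested genes did not change when the longest transcript replaced the union of exons as the length.

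**Figure D1:**
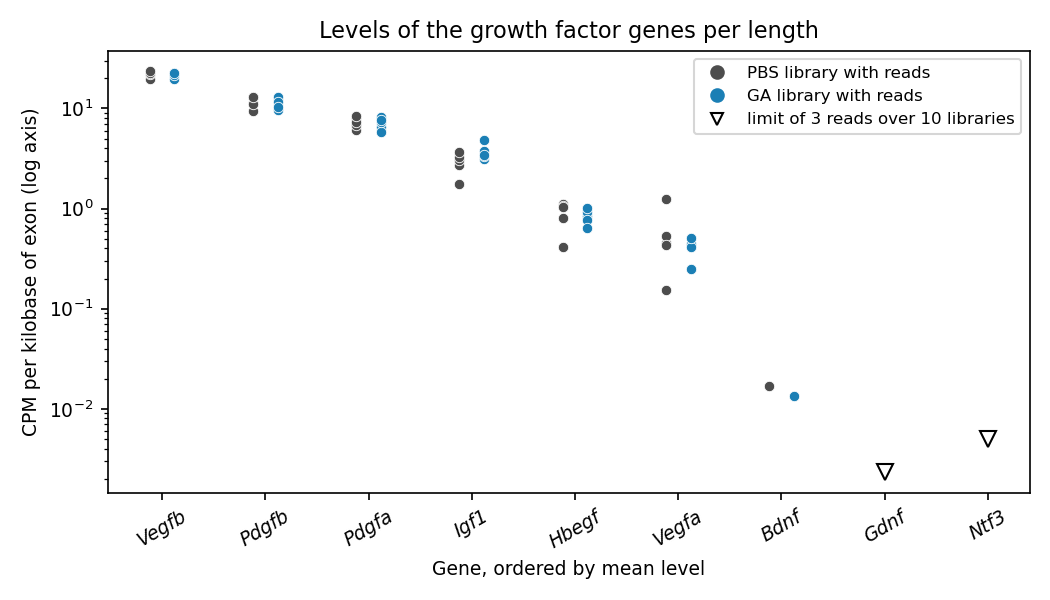
Level of each growth factor gene in each library, as CPM per kb of exon on a log axis, with genes ordered by their mean. Grey points are PBS libraries, blue points GA libraries, libraries at 0 are not drawn, and open triangles mark the limit of 3 reads over 10 libraries for *Gdnf* and *Ntf3*, which lie far under *Vegfb* at 21.8 and *Igf1* at 3.31 CPM per kb.

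The neurotrophic factors proper were at or near the limit of detection. *Bdnf* (ENSMUSG00000048482.14, chr2:109674700-109727007, plus strand, GRCm38) was counted 4 times in the PBS library 388_1, 3 times in the GA library 394_2 and 0 times in the other 8 libraries. Its 7 reads correspond to 0.0198 CPM in the pooled libraries, with an exact 95% Poisson interval of 0.00797 to 0.0409 CPM that covers counting error only. *Bdnf* shares 896 exon bases with the antisense gene *Gm45346*, and because the library kits do not mark strand, reads of the pair cannot be told apart. The libraries with *Bdnf* reads had neuronal marker sums of 2.20 CPM (388_1) and 1.07 CPM (394_2), inside the range of 0.749 to 2.72 CPM over all libraries. *Gdnf* (ENSMUSG00000022144.4, chr15:7810846-7837575, plus strand) and *Ntf3* (ENSMUSG00000049107.13, chr6:126101412-126166910, minus strand) were counted 0 times in every library, which allows up to 0.0085 CPM each over the pooled libraries when 3 reads are taken as the limit for a total of 0. A difference between GA and PBS was therefore not detectable at this depth for any of the 3 genes, and no fold change is given for them.

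Most other genes of the neurotrophin and GDNF pathways had few or no reads. *Ntf5*, a further neurotrophin gene, had 7 reads and did not pass the filter. Of 6 neurotrophin receptor genes only *Sort1*, which encodes the sorting receptor sortilin, was tested. *Sort1* reached 359 ± 41.7 CPM in PBS and 398 ± 26.8 CPM in GA (SD, n = 5), a log2 fold change of 0.15 (SE 0.08) with an edgeR adjusted p of 0.895. *Ngfr* had 0 reads, *Ntrk3* had 8, and 60 of the 93 reads of *Ntrk2*, the receptor gene for BDNF, fell in 1 library. None of the 9 further genes of the GDNF family passed the filter. Among them *Ret*, *Gfra1*, *Gfra3* and *Artn* had 0 reads, and *Pspn*, encoding the ligand persephin, had the highest level per length with 38 reads in all.

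*Igf1* showed the largest positive difference of the set. *Igf1* (ENSMUSG00000020053.18, chr10:87858265-87937042, plus strand, 8 merged exons) was at 17.4, 27.1, 30.5, 32.7 and 36.5 CPM in the PBS libraries 388_1 to 388_5. In GA it was at 30.7 and 37.5 CPM in 394_1 and 394_2 and at 33.4, 48.1 and 33.6 CPM in 400_1 to 400_3. The groups overlapped: all 5 GA libraries lay above the PBS median of 30.5 CPM, but only 394_2 and 400_2 exceeded the highest PBS library. Scaled by total counts alone, 394_1 was at 30.78 CPM, just under the PBS median of 30.87 CPM in 388_3. Group means were 28.8 ± 7.27 CPM in PBS and 36.7 ± 6.85 CPM in GA (SD, n = 5). This is a 1.27-fold higher level in GA with a 95% interval of 0.985 to 1.65, or a log2 fold change of 0.35 (SE 0.17), and edgeR's quasi-likelihood test gave an unadjusted p of 0.0629 and an adjusted p of 0.872. The two-sided exact permutation test on log2 CPM gave p = 0.0952, where the smallest value that 5 libraries against 5 can give is 0.00794. *Igf1* therefore did not pass the threshold, and most of its interval lay on the side of a higher level in GA.

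The size of the *Igf1* difference depended on 2 libraries at the ends of the range. Without 388_1, the lowest library, the log2 fold change was 0.21 (edgeR unadjusted p = 0.140), and without 400_2, the highest, it was 0.24 (unadjusted p = 0.183). Leaving out 388_5 raised it to 0.45 with an unadjusted p of 0.0226, and leaving out 394_1 gave 0.41 with an unadjusted p of 0.0445. Without 388_4 it was 0.40 (unadjusted p = 0.0503). The adjusted p in edgeR remained between 0.611 and 0.998 over these single omissions. DESeq2, limma-voom and edgeR without a filter on low counts gave unadjusted p-values of 0.0496, 0.0473 and 0.0288, with adjusted p-values of 0.760, 0.814 and 0.667.

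Vascular endothelial growth factors behaved unlike each other in their spread. *Vegfb* (ENSMUSG00000024962.13, chr19:6982473-6987651, minus strand) was the steadiest gene of the set, at 35.9, 31.7, 35.2, 35.9 and 38.1 CPM in PBS libraries 388_1 to 388_5. In the GA libraries 394_1, 394_2 and 400_1 to 400_3 it was at 31.6, 35.1, 36.0, 34.7 and 35.9 CPM. Its coefficient of variation over 10 libraries was 5.73% and the groups covered nearly the same range. Means were 35.4 ± 2.34 CPM in PBS and 34.7 ± 1.80 CPM in GA (SD, n = 5). The log2 fold change of -0.03 (SE 0.08) had an edgeR adjusted p of 0.975, and the 95% interval of the fold, 0.873 to 1.10, was the narrowest of the set.

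*Vegfa* (ENSMUSG00000023951.17, chr17:46016993-46032369, minus strand), by contrast, was the most variable of the 6 tested genes, with a coefficient of variation of 60.3%. It was at 0.654, 5.38, 1.95, 2.29 and 1.84 CPM in the PBS libraries 388_1 to 388_5, from 25 reads in 388_1 to 180 reads in 388_2. In GA it was at 1.83, 1.88, 1.79, 1.07 and 2.16 CPM in 394_1, 394_2 and 400_1 to 400_3. Both the highest and the lowest library were thus PBS libraries, 8.22-fold apart, and the whole GA range lay inside the PBS range. Means were 2.42 ± 1.76 CPM in PBS and 1.75 ± 0.403 CPM in GA (SD, n = 5). The log2 fold change was -0.47 (SE 0.43) with a 95% interval of -1.39 to 0.45 and an edgeR adjusted p of 0.933. With limma-voom it was -0.18, and the difference of mean log2 CPM was -0.21 (two-sided exact permutation p = 0.667). The edgeR value rested on 388_2: without that library it was 0.05, and without 388_1 it was -0.71 (edgeR unadjusted p = 0.0666, adjusted p = 0.828). The library 388_2 held both the highest *Vegfa* and the lowest *Hbegf* value. Transcripts of the hypoxia response summed to 778 CPM in 388_2, within the range of 774 to 928 CPM over the 10 libraries. *Hif1a*, *Vhl* and *Pdk1*, at means of 233, 144 and 128 CPM, weighed most in that sum, and *Ankrd37*, at 3.70 CPM, little. Endothelial and pericyte markers summed to 30.9 CPM in 388_2, within 23.4 to 36.2 CPM, most of it *Pecam1*. Why *Vegfa* was high in 388_2 was not tested.

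Within a library, the *Vegfb* to *Vegfa* ratio ran from 5.89 in 388_2 to 54.9 in 388_1. The log2 ratio of *Vegfa* to *Vegfb*, which does not depend on library scaling, averaged -4.17 ± 1.15 in PBS and -4.35 ± 0.39 in GA (SD, n = 5), a difference of -0.18 (two-sided exact permutation p = 0.770). Without 388_2 the difference of this log2 ratio was 0.23.

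**Figure D2:**
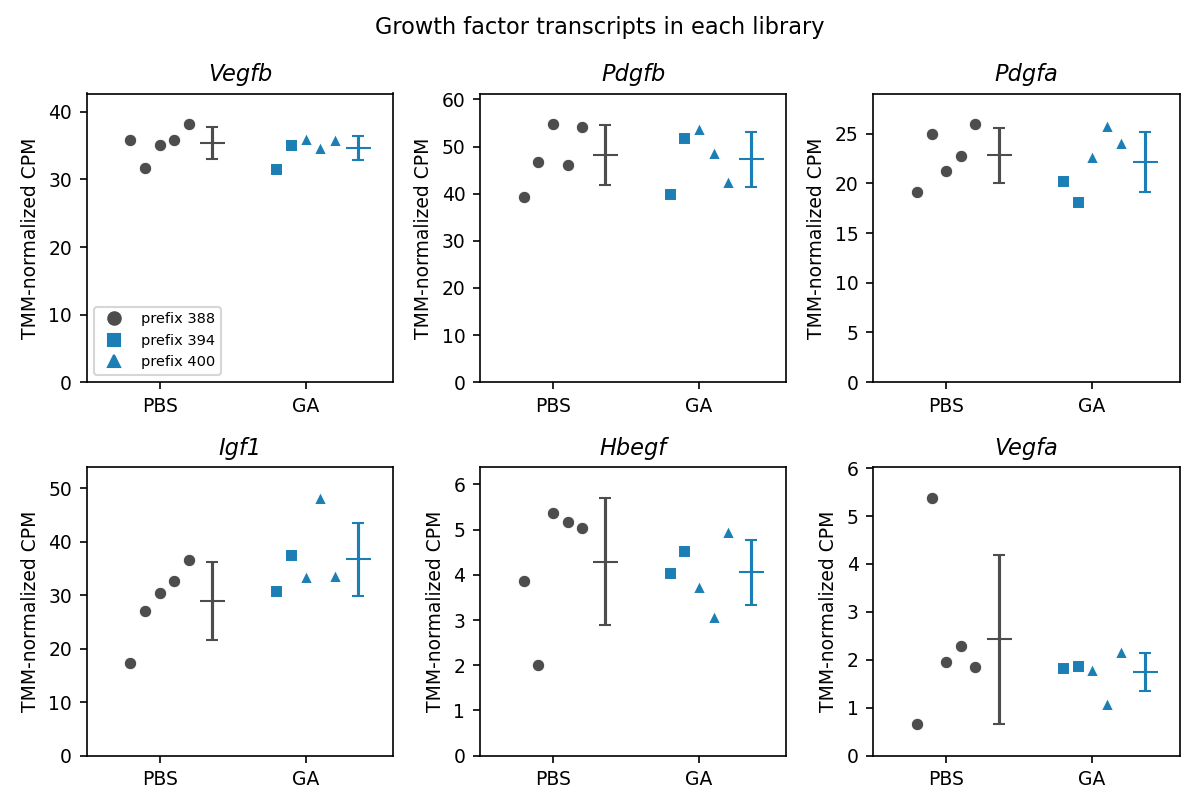
TMM-normalized CPM of the 6 tested growth factors in each library (grey circles, PBS with prefix 388; blue squares and triangles, GA with prefixes 394 and 400), with the mean and SD of each group of 5 beside the points. The groups overlap in all 6 panels. With this scaling, *Igf1* in GA lies above the PBS median of 30.5 CPM in all 5 libraries. The PBS library 388_2 holds the highest *Vegfa* value, 5.38 CPM.

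*Pdgfb* and *Pdgfa* encode chains of platelet-derived growth factor, and the PBS and GA ranges of each overlapped. *Pdgfb* (ENSMUSG00000000489.7, chr15:79995874-80014977, minus strand) was at 39.4, 46.7, 54.7, 46.1 and 54.1 CPM in the PBS libraries 388_1 to 388_5. In the GA libraries 394_1, 394_2 and 400_1 to 400_3 it was at 40.0, 51.7, 53.7, 48.6 and 42.6 CPM. Low and high libraries occurred in both groups. Means were 48.2 ± 6.37 CPM in PBS and 47.3 ± 5.87 CPM in GA (SD, n = 5), with a fold of 0.982 (95% interval 0.836 to 1.15), a log2 fold change of -0.03 (SE 0.11) and an edgeR adjusted p of 0.982.

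*Pdgfa* (ENSMUSG00000025856.15, chr5:138976014-138997370, minus strand) shares 813 exon bases with the antisense gene *6330403L08Rik*, whose reads cannot be told apart from its own. It was at 19.1, 25.0, 21.3, 22.8 and 25.9 CPM in the PBS libraries 388_1 to 388_5, and at 20.3, 18.1, 22.6, 25.7 and 24.1 CPM in the GA libraries 394_1, 394_2 and 400_1 to 400_3. The lowest and the second highest library were both GA libraries. Means were 22.8 ± 2.76 CPM in PBS and 22.2 ± 3.02 CPM in GA (SD, n = 5), with a fold of 0.972 (95% interval 0.818 to 1.16), a log2 fold change of -0.04 (SE 0.12) and an edgeR adjusted p of 0.976. The log2 ratio of *Pdgfa* to *Pdgfb* averaged -1.08 ± 0.17 in PBS and -1.10 ± 0.28 in GA (two-sided exact permutation p = 0.913).

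*Pdgfa* was also the gene of the set that differed most between the GA prefixes. It averaged 19.2 CPM in 394 (n = 2) and 24.1 CPM in 400 (n = 3), a log2 difference of 0.33 (SE 0.15; 95% interval 0.005 to 0.66). The unadjusted p from edgeR was 0.0470 and the adjusted p 0.893. Of all genes tested, 5.48% had an unadjusted p under 0.05 in this contrast, and 0.0138% an adjusted one. The other 5 growth factors had unadjusted p-values of 0.446 to 0.822 between the prefixes in the same edgeR fit. Compared with PBS, the GA libraries of prefix 400 alone gave a log2 fold change of 0.09 for *Pdgfa* and those of prefix 394 alone gave -0.24.

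*Hbegf* (ENSMUSG00000024486.6, chr18:36504927-36515805, minus strand) was expressed at a low level that varied 2.68-fold. It was at 3.87, 2.002, 5.38, 5.17 and 5.04 CPM in the PBS libraries 388_1 to 388_5. In GA it was at 4.05, 4.52, 3.73, 3.07 and 4.94 CPM in 394_1, 394_2 and 400_1 to 400_3. As for *Vegfa*, the GA range lay inside the PBS range, and none of the GA libraries exceeded the PBS median. Scaled by total counts alone, 400_3 was at 4.95 CPM, above the PBS median of 4.81 CPM in 388_5. Means were 4.29 ± 1.41 CPM in PBS and 4.06 ± 0.722 CPM in GA (SD, n = 5), a fold of 0.946 (95% interval 0.648 to 1.38) and a log2 fold change of -0.08 (SE 0.25) with an edgeR adjusted p of 0.978. Without 388_2, the lowest library, the log2 fold change was -0.26. It was -0.01 with limma-voom and without 388_5, -0.0048 without 388_4, and 0.01 without 388_3 or without 400_2.

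For the set as a whole, 0 of the 6 tested growth factors had an adjusted p under 0.05 in edgeR, where 0% of all genes did, and 0 of 6 had an unadjusted p under 0.05, where 5.75% of all genes did. Over all genes, 0 passed the adjusted threshold with edgeR or limma-voom, 2 with DESeq2, and 833 had an unadjusted edgeR p under 0.05. The groups failed to overlap for 0 of the 6 genes. Over all genes they did so for 0.891%, made up of 0.435% higher and 0.456% lower in GA. The median log2 fold change of the 6 genes was -0.03, with 1 positive and 5 negative, against a median of 0.00 over all genes, of which 50.1% were positive. Intervals of the fold lay between 0.818 and 1.16 for *Vegfb*, *Pdgfb* and *Pdgfa*, whereas those of *Vegfa*, *Hbegf* and *Igf1* were wider.

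Levels of the growth factors were compared with each other over libraries. In the 15 pairs of the 6 tested genes, Pearson's r of log2 CPM over the 10 libraries ran from -0.43 (*Vegfa* and *Vegfb*) to 0.64 (*Vegfb* and *Hbegf*). The r was above 0 in 12 pairs, among them all 5 with *Igf1*, and below 0 in 3. Of all genes tested, 49.4% had an r above 0 with *Igf1*. For *Vegfb* and *Hbegf* Spearman's rho was 0.36. The sign differed between r and rho in 2 pairs, *Igf1* and *Vegfa* (0.18 and -0.14) and *Vegfa* and *Hbegf* (-0.32 and 0.33). *Igf1* and *Pdgfb* had an r of 0.54 and a rho of 0.37. These values are descriptions, since all genes of a library share its depth and makeup.

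**Figure D3:**
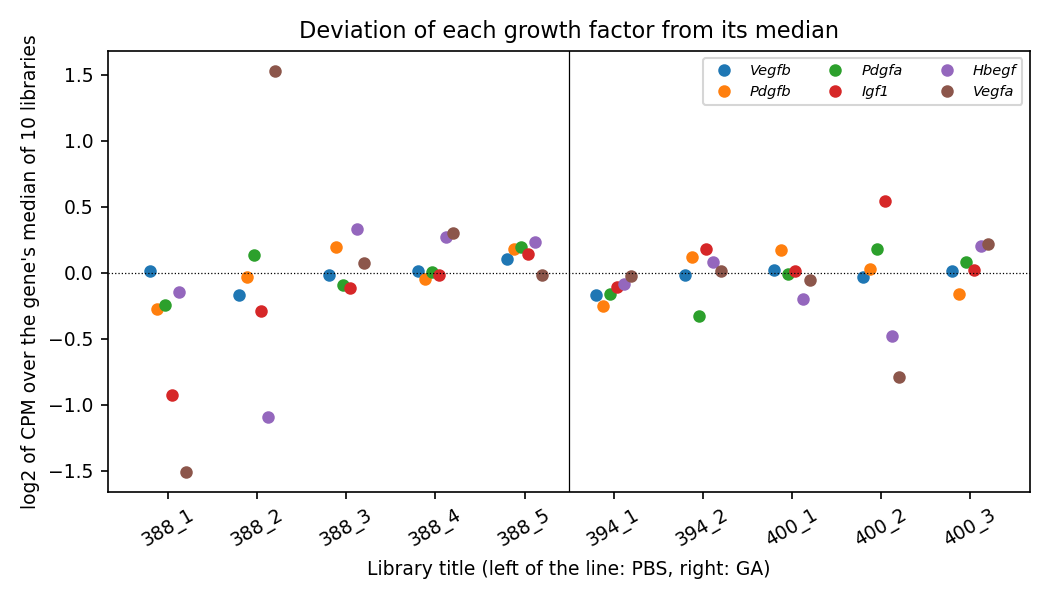
Log2 of each tested growth factor's CPM over its own median of the 10 libraries, by library title, with PBS left and GA right of the line. Points cluster near 0 for *Vegfb*, while *Vegfa* (brown) departs most, in 388_1 and 388_2, *Hbegf* (purple) is lowest in 388_2, and *Igf1* (red) is lowest in 388_1 and highest in 400_2.

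Genes with the library pattern most like each factor were found by Pearson's r over the 10 libraries. For *Igf1* they were *Fam20c* (0.95), *Efr3b* (0.94) and *Bhlhe40* (0.94). Without the 2 libraries farthest from the *Igf1* median, 388_1 and 400_2, these values were 0.87, 0.66 and 0.74. For *Pdgfa* they were *Ppp4r2* (0.94), *Ptafr* (0.91), which encodes the receptor for platelet-activating factor, and *Cyb561a3* (0.88). For *Pdgfb* they were *Frs2* (0.92), an adaptor of growth factor receptors, *Gapt* (0.89) and *Pianp* (0.89). For *Vegfa* they were *Smg1* (0.90), a kinase of nonsense-mediated decay, *Pisd* (0.88) and *Hhat* (0.88), with *Hhat* at 0.61 once 388_1 and 388_2 were left out. For *Vegfb* they were *Phldb3* (0.92), *Prkaca* (0.92), the catalytic subunit gene of protein kinase A, and *Sept6* (0.91). For *Hbegf* they were *Gm48933* (0.91), *Prdx5* (0.90), a peroxiredoxin gene, and *Hdgf* (0.90), and the first of these was at 0.53 without 388_2 and 400_2. The best of 14481 genes over 10 points reach high values by selection, so they carry no test.

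*Igf1* was compared with 15 further genes of the disease-associated microglia (DAM) program, the lipid-handling and lysosomal state described around plaques, to which *Igf1* itself is usually assigned. The 15 genes summed to between 23868 CPM in 388_1 and 33806 CPM in 400_2, the libraries in which *Igf1* was lowest and highest. Most of this sum was *Ctsd*, *Apoe* and *Ctsb*, at means of 11140, 6060 and 5834 CPM. Over 10 libraries, log2 *Igf1* and the log2 sum had a Pearson's r of 0.89 and a Spearman's rho of 0.70. Without 388_1 and 400_2, r was 0.68 and rho 0.40. Of the 15 genes, 11 had an r above 0.5 with *Igf1*, compared with 6.86% of all genes tested. *Apoe*, which encodes the lipid carrier apolipoprotein E, had an r of 0.91, and *Cst7*, encoding cystatin F, had 0.88. *Trem2*, the receptor gene that the full DAM state requires, had -0.07.

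**Figure D4:**
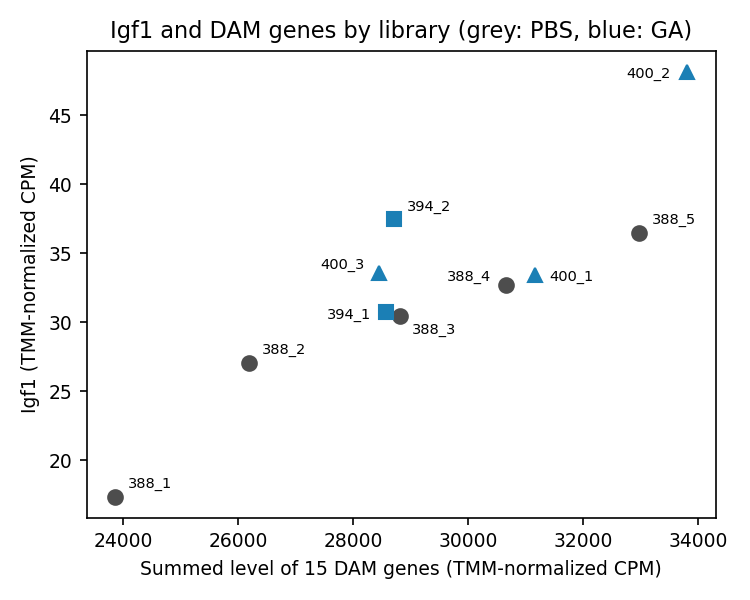
*Igf1* in TMM-normalized CPM against the summed level of 15 DAM genes, in CPM, for each library (grey circles, PBS, and blue squares and triangles, GA with prefixes 394 and 400). Most of the sum is *Ctsd*, *Apoe* and *Ctsb*. The libraries 388_1 and 400_2 lie at the lower left and upper right ends, and r falls from 0.89 to 0.68 without them.

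The DAM genes did not differ between treatments by the adjusted threshold in edgeR. Of the 15, 0 passed it, 11 were positive and 4 negative, and 2 had an unadjusted p under 0.05, both higher in GA, beside 50.1% of all genes that were positive and 2.58% that were higher at that threshold. *Csf1*, which encodes a ligand of the CSF-1 receptor, was at 103 ± 22.8 CPM in PBS and 142 ± 13.6 CPM in GA (log2 fold change 0.47, SE 0.13, edgeR adjusted p = 0.847), and its log2 fold change was 0.36 to 0.56 with each library left out. *Cst7* was at 275 ± 48.6 and 341 ± 63.5 CPM (log2 fold change 0.31, SE 0.14, edgeR adjusted p = 0.854). The *Cst7* log2 fold change was 0.21 without 388_1 (edgeR unadjusted p = 0.0971), 0.23 without 400_2 (unadjusted p = 0.112) and 0.03 with the GA libraries of prefix 394 alone. *Ctsd*, the cathepsin D gene and the highest per length, had a log2 fold change of 0.07 (SE 0.08).

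Partner genes of the growth factors were examined as 8 lists of ligands, receptors, binding proteins and processing enzymes with 71 genes in all. Of these, 46 did not pass the filter on low counts and 25 were tested. With edgeR, 0 had an adjusted p under 0.05, 0 were higher and 1 was lower in GA at an unadjusted p under 0.05, where 2.58% and 3.17% of all genes were. The median log2 fold change of the 25 was -0.09, with 7 positive and 18 negative.

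In the IGF axis, 6 of 14 genes were tested, with 1 positive and 5 negative. The insulin receptor gene *Insr* was the gene with the unadjusted p under 0.05: it was at 49.9 ± 9.37 CPM in PBS and 38.4 ± 6.97 CPM in GA (SD, n = 5), with ranges of 42.9 to 64.8 and 31.1 to 49.9 CPM that overlapped. Its log2 fold change was -0.38 (SE 0.14), for which edgeR's quasi-likelihood test gave an unadjusted p of 0.0160 and an adjusted p of 0.847. Without 388_4, the highest library, it was -0.26 (edgeR unadjusted p = 0.0501), and with the GA libraries of prefix 394 alone it was -0.19 (unadjusted p = 0.317). *Igf1r*, the receptor gene for IGF-1, was at 23.9 CPM with a log2 fold change of -0.08 (SE 0.12). *Igfbp4*, the binding protein gene with the highest level per length in the list, was at 59.8 CPM with a log2 fold change of -0.09 (SE 0.08). *Igf2*, the other ligand gene, had 3 reads.

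Of the 8 further genes of the VEGF axis, 4 were tested, of which 3 had positive and 1 a negative log2 fold change. *Nrp1*, encoding the co-receptor neuropilin 1, was the highest per length at 257 CPM, with a log2 fold change of 0.02 (SE 0.09). *Flt1*, the receptor gene shared by VEGF-A and VEGF-B, was at 10.5 ± 3.19 CPM in PBS and 13.5 ± 2.64 CPM in GA (log2 fold change 0.36, SE 0.20, edgeR adjusted p = 0.895). The *Flt1* log2 fold change was 0.25 to 0.49 with each library left out, with an edgeR unadjusted p of 0.0282 without 388_4 and 0.0350 without 388_5. *Kdr*, the principal signalling receptor gene for VEGF-A, was at 27.0 CPM. These receptor genes had 9479 (*Kdr*) and 4242 (*Flt1*) reads in all. Endothelial cells also carry them: of 10 endothelial and pericyte markers 2 passed the filter on low counts, *Pecam1* with 10448 reads and *Cdh5* with 221, while *Cldn5* had 9 reads and *Slco1a4* and *Rgs5* had 0. The 10 markers summed to 23.4 to 36.2 CPM in PBS and 23.9 to 33.7 CPM in GA. Most of that sum was *Pecam1* at a mean of 29.6 CPM, beside 0.631 CPM for *Cdh5*, so it stands largely for *Pecam1*. The part of endothelial cells in the *Kdr* and *Flt1* values was not tested. *Vegfc* had 5 reads, *Pgf* had 9 and *Vegfd* had 0.

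In the PDGF axis, *Pdgfc* (4.21 CPM, log2 fold change -0.10, SE 0.37) and the receptor gene *Pdgfrb* (3.75 CPM, log2 fold change -0.18, SE 0.27) were tested, and *Pdgfra*, the receptor gene of oligodendrocyte precursors, had 2 reads. In the EGF family, *Tgfa*, which encodes another ligand of the EGF receptor, was far higher than *Hbegf* at 171 CPM and had a log2 fold change of 0.01 (SE 0.11). *Nrg4* had the smallest p of that list at 0.442 CPM (log2 fold change -0.62, SE 0.52, edgeR adjusted p = 0.923; -1.09 without 400_1 and -0.38 without 388_4). The receptor gene *Egfr* had 21 reads, of which 17 were in 1 library, and *Erbb4* had 1.

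Of 13 genes of enzymes that release or activate these factors, 7 were tested, with 1 positive and 6 negative log2 fold changes, and 3 (*Plat*, *Plg* and *Pcsk5*) were at 0 in every library. *Adam10* (481 CPM) and *Adam17* (450.2 CPM), the sheddases of membrane-bound growth factors, had log2 fold changes of 0.02 (SE 0.07) and 0.00 (SE 0.06). *Furin*, encoding a proprotein convertase, was at 143 CPM with a log2 fold change of -0.11 (SE 0.08). *Mmp9*, encoding gelatinase B, was at 12.9 ± 7.16 CPM in PBS and 7.71 ± 4.17 CPM in GA (log2 fold change -0.74, SE 0.42, edgeR adjusted p = 0.895). Without 388_3 the *Mmp9* log2 fold change was -0.48, and without 394_2 it was -0.99 (edgeR unadjusted p = 0.0447). Neutrophils also carry *Mmp9*, and the monocyte and neutrophil sum was lower in GA, as given above. Genes for the proteases *Plat* and *Plg* had 0 reads.

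Transcripts of the hypoxia response, to which *Vegfa* belongs, and immediate early genes, which rise quickly on cell stimulation or handling, were measured beside the growth factors. Of 13 genes of the hypoxia response, 11 were tested, with 9 positive and 2 negative, where 50.1% of all genes were positive, a median log2 fold change of 0.04 and 0 with an adjusted p under 0.05 in edgeR, as for 0% of all genes. *Hif1a* was at 217 ± 30.6 CPM in PBS and 250 ± 27.7 CPM in GA (log2 fold change 0.20, SE 0.10, edgeR adjusted p = 0.872), and *Vhl*, whose product marks HIF for degradation, had a log2 fold change of 0.02 (SE 0.07). Of 14 immediate early genes, 13 were tested, with 5 positive, 8 negative and 0 past either threshold, where 5.75% of all genes had an unadjusted p under 0.05 and 0% an adjusted one. *Junb* was at 237 CPM (log2 fold change -0.16, SE 0.11) and *Dusp1* at 27.2 CPM (log2 fold change -0.74, SE 0.45), whose log2 fold change was -0.09 without 388_4. The immediate early genes summed to 1039 CPM in 388_2 and 1040 CPM in 388_1, the libraries with the highest and the lowest *Vegfa*. Most of this sum was *Btg2*, *Jun*, *Junb* and *Zfp36*, at means of 250, 244, 237 and 203 CPM, so it can hide differences of single genes. A relation of these genes to *Vegfa* was not tested.

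**Figure D5:**
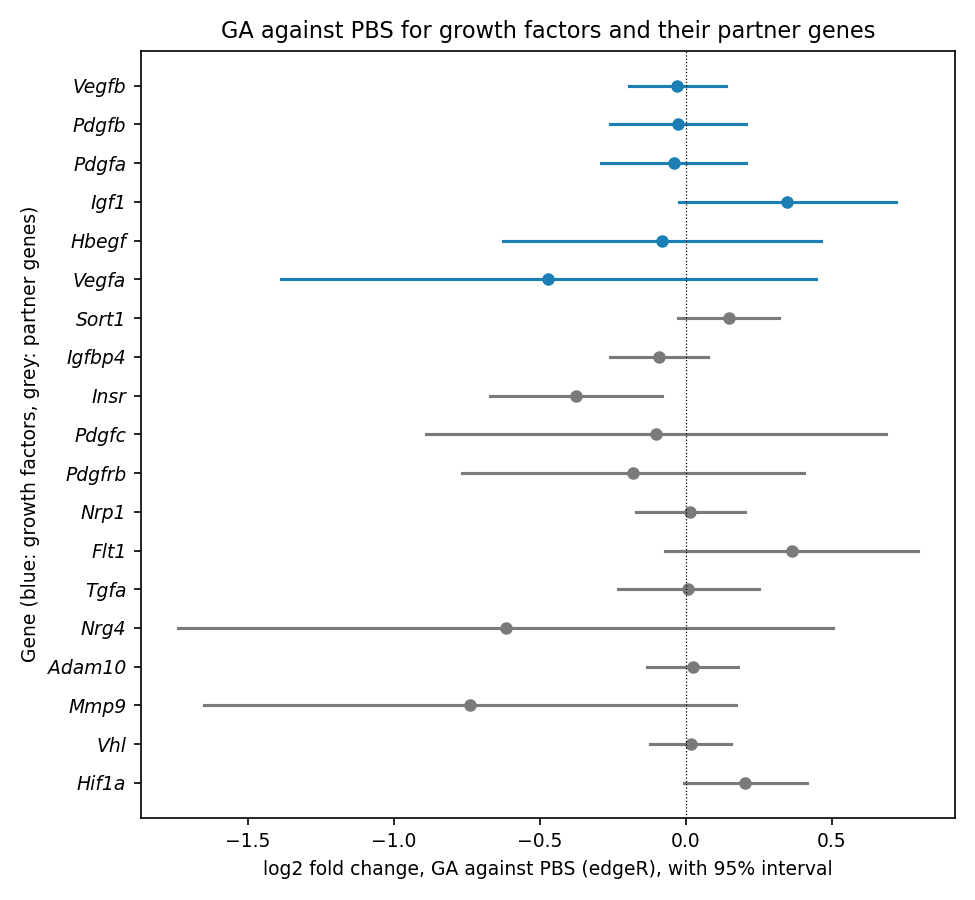
Log2 fold change of GA against PBS with its 95% interval from edgeR, for the 6 tested growth factors (blue) and for named partner genes (grey). The intervals of all growth factors include 0; that of *Vegfb* is narrowest and that of *Igf1* lies mostly above 0 around 0.35, and among the partner genes only the interval of *Insr* lies below 0.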

How the data were processed

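RNA of sorted hippocampal microglia was preamplified from low input, fragmented and sequenced as single-end reads of 100 nt. The authors deposited 1 table of raw counts, the whole number of reads on each gene in each library, with no normalization. The submitters' processing notes name bcl2fastq 2.19.0, fastp 0.20.0, STAR 2.7.0f, Subread 1.6.4 with featureCounts, DESeq2 and GRCm38.p6; the order, parameters, annotation release and strand setting are not given in the sources used here. Because reads were amplified and carry no molecular identifiers, the *Bdnf* Poisson interval and the limits for 0 reads cover counting error only. The edgeR intervals of the fold rest on the spread between libraries.

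Groups came from the treatment labels, and 0 columns were without a sample. The 9 genes, the pathway and marker lists and the tests were chosen with earlier results of these data known. Counts were filtered with filterByExpr at a minimum of 10, scaled by TMM and tested with edgeR 4.0.16 (quasi-likelihood F-test, R 4.3.3) with Benjamini-Hochberg adjustment over 14481 genes at 0.05. Single genes and ratios were also compared by two-sided exact permutation tests over 252 arrangements, of log2 CPM with a pseudocount of 0.1 for single genes. Alternatives were DESeq2 1.42.0 (the tool of the study), limma-voom (limma 3.58.1), other scalings, filters and pseudocounts, a robust fit, each library left out, either GA prefix alone, and another gene length. Exon lengths and positions came from GENCODE on GRCm38 and promoter windows from RefSeq. The edgeR and permutation steps were tested on simulated data. From each list, the genes named were the one with the highest level per length, the one with the smallest p and any with an unadjusted p under 0.05. Others, such as *Kdr*, *Igf1r*, *Egfr*, *Adam17*, *Furin*, *Apoe* and genes with few reads, are named for their role and were chosen after their values were seen. A few items of the model and the lists are not reported here by name. Figures used Python 3.11.15, numpy 2.4.6 and matplotlib 3.10.9.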

Additional observations from a re-analysis of the deposited data

Results flagged for a closer look

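Dixon's test for a value far from the rest of its group was applied to 142 groups of 5 libraries, each gene in each treatment, over the growth factors with any read and the tested genes of the pathway lists. Chance alone gives about 1 such value in 20 groups, and the values listed below are no more frequent than that. Among the growth factors, the 6 tested genes had none, and *Gdnf* and *Ntf3*, at 0 in every library, have no spread to test. *Bdnf* was at 0.105 CPM in the PBS library 388_1 and at 0.0842 CPM in the GA library 394_2, with all other libraries at 0. Where the rest of a group is at 0, any library with a read is flagged by construction. These values rest on the few *Bdnf* reads given above. *Adam10* in the GA library 394_2, at 508 CPM, lay above the other GA libraries at 475 to 483 CPM. *Egr1*, an immediate early gene named here after its values were seen, was at 22.6 CPM in the PBS library 388_1, below the other PBS libraries at 42.5 to 47.7 CPM. In the GA library 400_3 *Egr1* was at 29.8 CPM, below the other GA libraries at 44.5 to 48.7 CPM. *Dusp1* in the PBS library 388_4, at 83.6 CPM, lay above the other PBS libraries at 13.4 to 28.9 CPM.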

How the results depend on the processing

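No growth factor had an adjusted p under 0.05 in any of the 19 alternatives. The count of growth factors with an unadjusted p under 0.05 was 0 in the reported edgeR fit and 1 (*Igf1*) with DESeq2, with limma-voom and without a filter, and 0 to 1 with each library left out (1 without 388_5 or 394_1). The count of all genes with an adjusted p under 0.05 was 2 with DESeq2 and 0 to 1 with each library left out. The log2 fold change of *Igf1* stayed positive in all 19 alternatives, at 0.21 to 0.45 with each library left out and 0.25 to 0.42 otherwise. Its permutation difference was 0.20 to 0.47, with exact p-values from 0.0238 without 388_5 to 0.238 without 400_2. Log2 fold changes near 0 changed sign: *Hbegf* was 0.00301 with prefix 394 alone, and *Pdgfa*, *Pdgfb* and *Vegfb* were 0.0873, 0.0081 and 0.0123 with prefix 400 alone. With each library left out, log2 fold changes ran from -0.098 to 0.024 for *Pdgfa*, -0.091 to 0.029 for *Pdgfb*, -0.71 to 0.054 for *Vegfa*, -0.065 to 0.0050 for *Vegfb* and -0.26 to 0.013 for *Hbegf*. The corresponding permutation differences ran from -0.11 to 0.026, -0.096 to 0.033, -0.58 to 0.14, -0.066 to 0.0056 and -0.26 to 0.082. The *Vegfa* to *Vegfb* log2 ratio difference ran from -0.58 to 0.23 and that of *Pdgfa* to *Pdgfb* from -0.090 to 0.086. Where single libraries are not named, the cause of these shifts was not tested. Levels per kb rose with the longest transcript as length, to 27.3 for *Vegfb* and 4.64 for *Igf1*, by construction. No paired analysis was possible because title numbers restart within each prefix, prefix 394 holds numbers 1 and 2 only, and a number names a library, not a pair. Depth limits *Bdnf*, *Gdnf* and *Ntf3*, as given with their counts.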
